A study of Homo sapiens with 12 samples.

Results

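Aminoacyl-tRNA synthetases are the enzymes that attach amino acids to their transfer RNAs (tRNAs). Their messenger RNAs were followed in HCC1806 cells, a human triple-negative breast cancer (TNBC) line, after doxorubicin and after depletion of the kinase MLK4. The list comprised 35 genes chosen by name, 19 for cytosolic enzymes and 16 for mitochondrial enzymes, and all 35 had a row in the table of 17013 genes. The mRNA-seq experiment held 12 libraries in 4 groups of 3. An siRNA pool against MLK4 (siMLK4) or a non-targeting control (siNT) was transfected, and the cells then received vehicle (DMSO in the labels, untreated in the study's methods) or 1 μM doxorubicin, an anthracycline that damages DNA, for 24 h. All groups share the line and the transfection. The sample titles mark the vehicle libraries as time 0 and the treated libraries as 24 h, whereas the study's supplement describes DMSO as given for 24 h too, so the sources differ on whether vehicle cells were harvested with the treated cells. Transfections were made in triplicate and no source says that they were separate cultures, so p-values measure the spread between these libraries, which may be technical.

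The libraries held 16759025 to 19302248 reads assigned to genes, and every synthetase count below is a read count divided by the size factor of its library, called normalized reads. MAP3K21, the gene for MLK4, was at 632 ± 68.5 normalized reads (SD, n = 3) in siNT vehicle cells and 95.5 ± 7.31 in siMLK4 vehicle cells. With doxorubicin the corresponding levels were 795 ± 53.3 and 115 ± 22.1. MAP3K21 was thus lower in siMLK4 cells by a log2 fold change of −2.24 with vehicle and −2.37 with doxorubicin (adjusted p = 9.7e-08 and 1.1e-07, limma). The keratin genes KRT5, KRT14, KRT17 and KRT6A and the basal regulator TP63 were read in all groups, with group means from 996 normalized reads (KRT14, siMLK4 doxorubicin) to 32257 (KRT5, siMLK4 vehicle). Among hormone receptor genes, PGR was at 0 reads in the vehicle groups and averaged 13.3 and 11.7 normalized reads with doxorubicin, and ESR1 averaged from 46.5 to 117. Of 4 markers of other cell types a culture could hold, CD3E and PECAM1 were not analysed here, PTPRC (leukocytes) averaged at most 20.3 normalized reads, and LUM (fibroblasts) averaged 138 and 190.4 in siNT and siMLK4 vehicle cells but 21.1 and 16.5 with doxorubicin. PTPRC and LUM together summed to 140.95, 114.23 and 176.26 normalized reads in siNT vehicle, 37.84, 40.72 and 45.63 in siNT doxorubicin, 189.4, 151.49 and 235.64 in siMLK4 vehicle and 25.44, 35.03 and 42.64 in siMLK4 doxorubicin libraries, with LUM the more abundant by group mean except in the siMLK4 doxorubicin group. The number of genes at 0 reads also moved with doxorubicin, from between 313 and 354 to between 27 and 42 in siNT libraries and from between 200 and 219 to between 17 and 21 in siMLK4 libraries. The part of these in the results below was not tested.

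Cells carry separate sets of synthetases for the cytosol and for mitochondria, almost all encoded in the nucleus by separate genes. By the usual naming the suffix 1 marks the cytosolic and the suffix 2 the mitochondrial enzyme. GARS1 and KARS1 serve both compartments from a single gene. EPRS1 carries the glutamyl and prolyl activities on a single chain. FARSA and FARSB are the subunits of the cytosolic phenylalanyl enzyme, which has a single-chain counterpart, FARS2, in mitochondria. Several cytosolic enzymes are held in a multisynthetase complex on scaffold proteins. Many cytosolic synthetase genes are known targets of ATF4, the transcription factor of the amino acid and endoplasmic reticulum stress response, whereas the mitochondrial enzymes serve the translation of the few proteins encoded in mitochondrial DNA.

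At baseline the cytosolic enzymes were the more abundant class. In siNT vehicle cells, in reads per kilobase of exon scaled to library depth (RPKM), the highest level was that of TARS1, the threonyl enzyme, at 188 ± 30.4 (SD, n = 3), followed by EPRS1 at 102 ± 12.1. The mitochondrial isoleucyl gene IARS2 was the third at 88.7 ± 3.02 RPKM. The lysyl gene KARS1 (68.2 ± 5.48) and the seryl gene SARS1 (64.7 ± 19.5) came next and did not differ beyond the spread of SARS1. With doxorubicin TARS1 kept the highest level in both transfections, at 164 ± 7.70 RPKM in siNT and 134 ± 10.7 in siMLK4 cells, and EPRS1 moved from rank 2 to rank 7 in both. The tyrosyl gene YARS2 was the second of the mitochondrial genes at 26.3 ± 0.491 RPKM. Across 17 pairings of a cytosolic with a mitochondrial enzyme for the same amino acid, the cytosolic RPKM was the higher in 14, and the median ratio was 8.56. The exceptions were IARS1 against IARS2, with a ratio of 0.217, CARS1 against CARS2 (cysteinyl), with 0.706, and HARS1 against HARS2 (histidyl), with 0.77. Ranks and ratios depend on the length, here all annotated exons, with 22418 bases for IARS1, 4135 for IARS2, 14155 for HARS1 and 3719 for HARS2. In mean normalized reads IARS1 (8766) was above IARS2 (7450), and HARS1 (1536) above HARS2 (525). CARS1 (1291) was below CARS2 (1893) by that measure too.

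The mitochondrial seryl and valyl genes SARS2 and VARS2 were the lowest of the 35, at 0.447 and 0.0645 RPKM in siNT vehicle cells. In the GENCODE annotation, 48.2% of the exonic bases of SARS2 and 63% of those of VARS2 are shared on the same strand with another gene, ENSG00000269547 and ENSG00000288473, respectively. Reads there could be assigned to either gene or to none, so both levels are uncertain. The lowest level of the other 33 members in any library was 107 normalized reads.

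The promoters are shown before the responses. Of the 6 cytosolic genes that hold the motif below, 5 fell with doxorubicin in siNT cells (adjusted p under 0.05). In the whole cytosolic class 12 of 19 fell, and 27.7% of all genes were lower. YARS2, the mitochondrial gene with a match, did not pass, at −0.02 (adjusted p = 0.89, limma). Whether the motif bears on the response was not tested. RefSeq promoters (GRCh38.p14, 250 bases before to 50 bases after the gene start) were at hand for 30 of the 35 members and for 12030 of the genes tested, and LARS1, VARS1, YARS1, AARS2 and VARS2 had no entry. The motif TGATGNAA, the core of the element bound by ATF4 with CEBP partners, was sought on both strands and was found in 6 of 16 cytosolic promoters (37.5%), 1 of 14 mitochondrial promoters (7.14%) and 209 of 12030 promoters of all genes tested (1.74%). Each match is shown with 25 bases on either side on the strand of its gene, with the motif in capitals.
AARS1, chr16:70289661-70289718, minus strand: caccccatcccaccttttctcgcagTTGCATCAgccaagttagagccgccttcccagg
CARS1, chr11:3057393-3057450, minus strand: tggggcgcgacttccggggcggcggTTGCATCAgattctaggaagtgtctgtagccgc
IARS1, chr9:92293678-92293735, minus strand: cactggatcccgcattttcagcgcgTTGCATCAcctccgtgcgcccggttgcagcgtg
MARS1, chr12:57488039-57488096, plus strand: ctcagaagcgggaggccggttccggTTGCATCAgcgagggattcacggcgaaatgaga
NARS1, chr18:57621790-57621847, minus strand: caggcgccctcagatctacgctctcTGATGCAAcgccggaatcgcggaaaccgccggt
TARS1, chr5:33440942-33440999, plus strand: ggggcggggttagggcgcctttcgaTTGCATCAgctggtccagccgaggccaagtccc
YARS2, chr12:32756062-32756119, minus strand: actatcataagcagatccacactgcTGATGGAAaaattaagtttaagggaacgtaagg
In 5 of the 6 cytosolic promoters the printed strand reads TTGCATCA, and NARS1 reads TGATGCAA, the same word on the other strand. These matches start between 13 bases before and 15 bases after the RefSeq gene start, except in AARS1, where the match lies 187 bases before it. The distances hold for RefSeq starts alone. In GENCODE the starts of AARS1 (70289707), MARS1 (57475445) and NARS1 (57622213) lie upstream of their matches. The mitochondrial match, in YARS2, reads TGATGGAA and lies 197 bases before the start. No match overlapped one of the other motifs searched. Of these, CCGGAAG, the core bound by ETS factors, was in 8 of 16 cytosolic, 6 of 14 mitochondrial and 18% of all promoters. The NRF1 motif GCGCANGCG was in 3 of 16, 3 of 14 and 14%, and the E-box CACGTG in 1 of 16, 3 of 14 and 9.86%. A match is a description of these letters and says nothing of whether a factor was bound.

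Which synthetase mRNAs responded to doxorubicin in cells with MLK4 was asked first. With doxorubicin 21 of the 35 mRNAs were lower in siNT cells and 3 higher (adjusted p under 0.05, limma with Benjamini-Hochberg adjustment over all 17013 genes), whereas 27.7% of all genes were lower and 29.6% higher by this rule. Among the cytosolic genes 12 of 19 fell and 1 rose, with a median log2 fold change of −0.59. Among the mitochondrial genes 9 of 16 fell and 2 rose, with a median of −0.38. The median over all genes tested was 0.00. Scaled by library totals, 9 cytosolic and 7 mitochondrial genes fell while 4 and 4 rose, and scaled by the 75th percentile 11 and 8 fell while 3 and 4 rose. By the stricter rule of the study's heatmap, an adjusted p under 0.01 and a log2 fold change beyond 0.75 in size, 8 cytosolic and 4 mitochondrial genes fell, against 10.6% of all genes lower and 12.1% higher. The 3 members that rose did not reach that fold, and under library totals FARS2 did, at 0.78 (adjusted p = 0.00089). The values are fold changes on the variance-stabilized log2 scale, which understates the change of genes with few reads. The table gives each mRNA relative to the rest of its library, so fewer cells with a transcript and less RNA per cell cannot be told apart.

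EPRS1 (ENSG00000136628, chr1:219968600-220046530, minus strand), the glutamyl-prolyl enzyme, had the largest fall of the 35 on the variance-stabilized scale, and the second largest, after TARS2, in limma-voom (−1.95 against −2.16). It was at 10721, 9808 and 12467 normalized reads in siNT cells with vehicle and at 2465, 2799 and 3268 with doxorubicin. All 3 treated libraries lay far below all vehicle libraries, at 25.9% of the vehicle mean, for a log2 fold change of −1.93 ± 0.13 (SE, n = 3 and 3, adjusted p = 7e-08). GARS1 (ENSG00000106105, chr7:30580533-30634033, plus strand), the glycyl enzyme, was at 9758, 5076 and 8123 with vehicle and 2407, 2553 and 2949 with doxorubicin. The groups did not overlap, but vehicle replicate 2 lay well below replicates 1 and 3, and the log2 fold change was −1.47 ± 0.22 (SE, n = 3 and 3, adjusted p = 7.3e-05). FARSB (ENSG00000116120, chr2:222566899-222656092, minus strand), the beta subunit of the phenylalanyl enzyme, went from 2534, 2946 and 3247 to 911, 996 and 1240.0 normalized reads. Its groups were separate, with a log2 fold change of −1.43 ± 0.14 (SE, n = 3 and 3, adjusted p = 1.5e-06). The mRNA of the partner subunit, FARSA, did not follow, at 0.26 ± 0.13 (adjusted p = 0.098, limma).

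The alanyl gene AARS1 was at 7396, 4685 and 6854 normalized reads with vehicle and at 2299.7, 2560.1 and 2962 with doxorubicin. All treated libraries were below all vehicle libraries, of which replicate 2 was the lowest, and the log2 fold change was −1.24 ± 0.17 (SE, n = 3 and 3, adjusted p = 3.2e-05). The tyrosyl gene YARS1 fell by a similar log2 step (−1.11 ± 0.15), as did the isoleucyl gene IARS1 (−1.01 ± 0.13), the methionyl gene MARS1 (−0.97 ± 0.15) and the asparaginyl gene NARS1 (−0.81 ± 0.11). NARS1 was below the fold threshold of the stricter rule without siNT vehicle replicate 1 (−0.75) or without siNT doxorubicin replicate 1 (−0.74). Smaller falls were those of SARS1 (−0.69), the valyl gene VARS1 (−0.59), the leucyl gene LARS1 (−0.47) and TARS1 (−0.42). TARS1 did not pass when siNT vehicle 1, siNT vehicle 3 or siNT doxorubicin 1 was left out (log2 fold changes from −0.57 to −0.31 over the 12 fits that left out 1 library). SARS1 did not pass without siNT vehicle replicate 1. CARS1, with −0.46 ± 0.19, had an adjusted p of 0.056 in limma and 0.048 with replicate number as a block. The remaining cytosolic genes that did not pass lay between −0.12 (QARS1, glutaminyl) and 0.26 (FARSA), with WARS1 (tryptophanyl), HARS1 and RARS1 (arginyl) between them. KARS1 was the single cytosolic riser, at 0.30 ± 0.10 (adjusted p = 0.022, limma). It did not pass when siNT vehicle 1, siNT doxorubicin 2 or siNT doxorubicin 3 was left out (log2 fold changes from 0.24 to 0.33 over the 12 fits that left out 1 library).

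**Figure D1:**
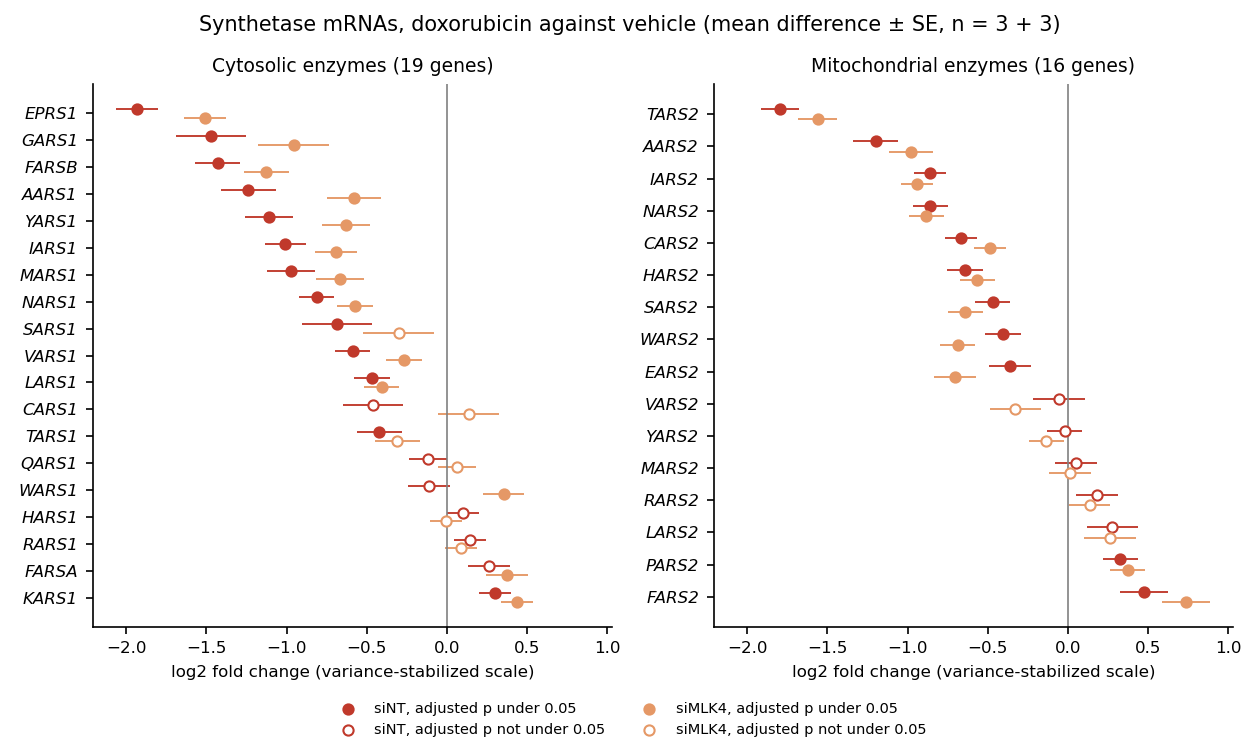
Log2 fold change with doxorubicin of each synthetase mRNA (x axis, variance-stabilized scale) in siNT cells (dark red) and siMLK4 cells (orange), with the SE as the bar and filled points for an adjusted p under 0.05. The cytosolic genes run from EPRS1 at −1.93 to KARS1 at 0.30 and the mitochondrial genes from TARS2 at −1.80 to FARS2 at 0.48 in siNT cells, and most cytosolic genes lie closer to 0 in siMLK4 cells.

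TARS2 (ENSG00000143374, chr1:150487414-150507602, plus strand), the mitochondrial threonyl enzyme, fell about as far as EPRS1. It was at 577, 492 and 503 normalized reads with vehicle and 118, 107 and 124 with doxorubicin in siNT cells. The treated libraries were at 22.2% of the vehicle mean with no overlap, and the log2 fold change was −1.80 ± 0.12 (SE, n = 3 and 3, adjusted p = 8.4e-08). AARS2, the mitochondrial alanyl enzyme, went from 373, 424 and 331 to 107, 137 and 168, again without overlap, for a log2 fold change of −1.20 ± 0.14 (SE, n = 3 and 3, adjusted p = 5.8e-06). IARS2 went from 7843, 7292 and 7215 to 3867, 4576 and 3832 normalized reads. The groups were separate and the log2 fold change was −0.86 ± 0.10 (SE, n = 3 and 3, adjusted p = 6.1e-06). NARS2 (asparaginyl) fell by the same log2 step, at −0.86 ± 0.11. CARS2 (−0.67), HARS2 (−0.64), SARS2 (−0.47), the tryptophanyl gene WARS2 (−0.40) and the glutamyl gene EARS2 (−0.36) also fell. For SARS2, with few reads, the scale understates the change, since its treated libraries were at 42.0% of the vehicle mean and limma-voom gave −1.20. EARS2 did not pass when siNT vehicle 2, siNT vehicle 3, siNT doxorubicin 1 or siNT doxorubicin 3 was left out (log2 fold changes from −0.48 to −0.29 over the 12 fits that left out 1 library).

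The mitochondrial risers were FARS2, the single-chain phenylalanyl enzyme, and PARS2, the prolyl enzyme. FARS2 was at 427, 333 and 311 normalized reads with vehicle and 572, 527 and 448 with doxorubicin. Every treated library was above every vehicle library, for a log2 fold change of 0.48 ± 0.15 (SE, n = 3 and 3, adjusted p = 0.012), and the call was lost when siNT doxorubicin replicate 1 was left out. PARS2 went from 128, 148 and 131 to 185, 185 and 177, also without overlap, with a log2 fold change of 0.33 ± 0.11 (SE, n = 3 and 3, adjusted p = 0.02). It did not pass when siNT vehicle 1, siNT vehicle 3, siNT doxorubicin 1 or siNT doxorubicin 2 was left out (log2 fold changes from 0.30 to 0.38 over the 12 fits that left out 1 library). The leucyl (LARS2), arginyl (RARS2), methionyl (MARS2), tyrosyl (YARS2) and valyl (VARS2) genes did not pass, at 0.28, 0.18, 0.05, −0.02 and −0.06.

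**Figure D2:**
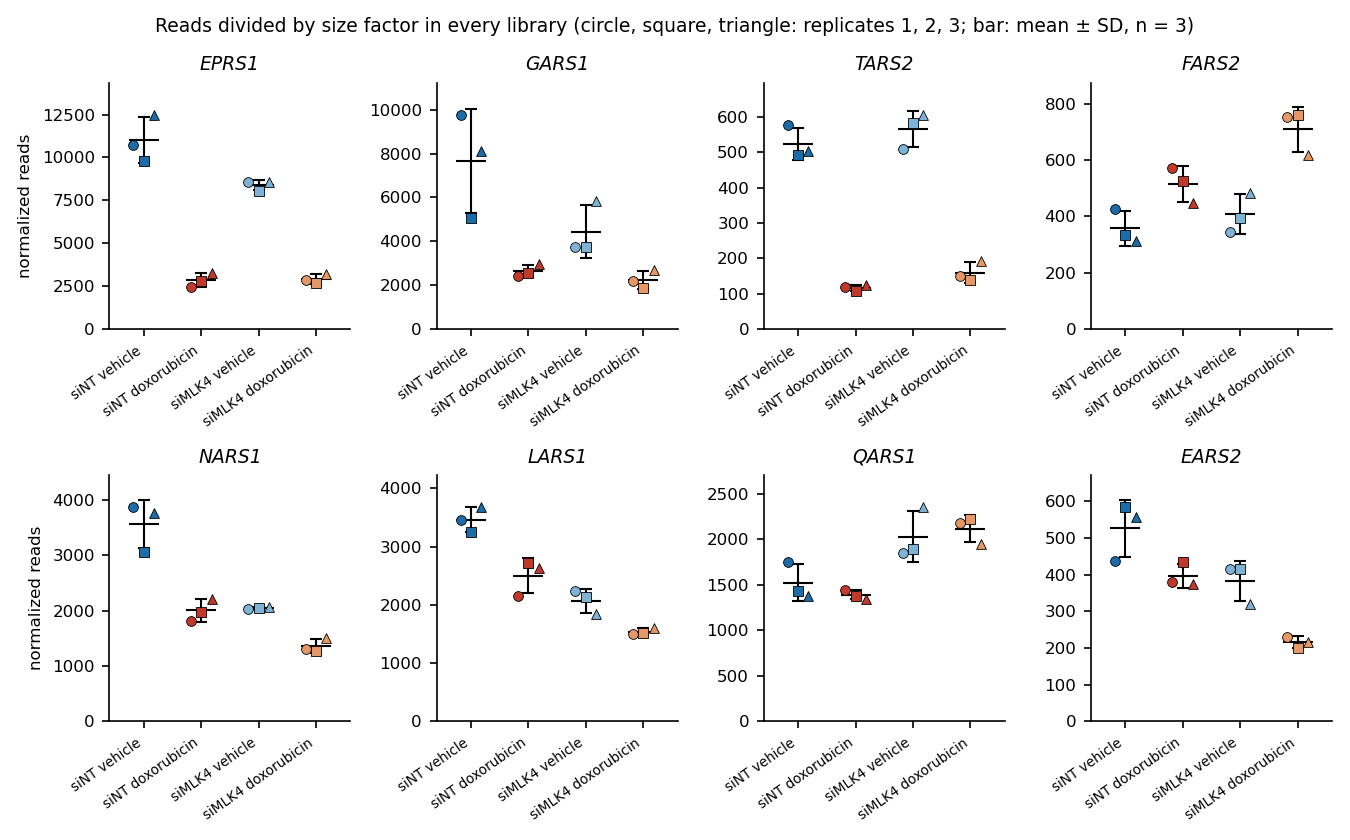
Normalized reads (y axis, from 0) of 8 synthetase genes in every library of the 4 groups, with replicates as symbols and the mean and SD (n = 3) as bars. EPRS1 and TARS2 drop with doxorubicin with no overlap, GARS1 has a wide spread with vehicle from 5076 to 9758 in siNT cells, and QARS1 is the higher in both siMLK4 groups.

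The response was then read in cells depleted of MLK4. In siMLK4 cells 19 synthetase mRNAs were lower and 5 higher with doxorubicin at an adjusted p under 0.05 (limma, Benjamini-Hochberg), against 27.7% of all genes lower and 30.2% higher. The cytosolic median was −0.31 with 10 of 19 genes lower and 3 higher. Scaled by library totals it was −0.12, with 8 lower and 4 higher. The mitochondrial median was −0.52 with 9 of 16 lower and 2 higher, and the median over all genes was 0.02. By the stricter rule 3 cytosolic genes (EPRS1, FARSB, GARS1) and 4 mitochondrial genes (TARS2, AARS2, IARS2, NARS2) fell, against 10.6% of all genes lower and 12.6% higher. Fits on log2 of the recovered reads called 11 members in place of 7, the additions being EARS2, SARS2 and WARS2, which fell, and FARS2, which rose.

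In these cells EPRS1 was at 8543, 8039 and 8539 normalized reads with vehicle and 2855, 2653 and 3226 with doxorubicin. The treated libraries reached the same range as in siNT cells from a lower vehicle level, and the log2 fold change was −1.51 ± 0.13 (SE, n = 3 and 3, adjusted p = 5.1e-07). FARSB went from 1973, 2076 and 1689 to 803, 771 and 969, with separate groups and a log2 fold change of −1.13 ± 0.14 (SE, n = 3 and 3, adjusted p = 1.2e-05). GARS1 went from 3736, 3752 and 5818 to 2169, 1854 and 2683. Vehicle replicate 3 stood above the other vehicle libraries, the groups did not overlap, and the log2 fold change was −0.96 ± 0.22 (SE, n = 3 and 3, adjusted p = 0.0022). Without that library it was −0.75, and without siMLK4 doxorubicin replicate 2 it was −0.83 with an adjusted p of 0.014, so GARS1 no longer met the stricter rule. TARS2 went from 509, 583 and 605 to 149, 138 and 192, AARS2 from 345, 402 and 319 to 151, 163 and 153 and IARS2 from 6421, 6451 and 6476 to 3363, 3357 and 3299 normalized reads. All 3 mitochondrial genes were separate between the groups, with log2 fold changes of −1.56 ± 0.12, −0.98 ± 0.14 and −0.94 ± 0.10. The risers were FARS2 (0.74), KARS1 (0.44), FARSA (0.38), PARS2 (0.37) and WARS1 (0.36). FARSA did not pass when siMLK4 vehicle 1, siMLK4 doxorubicin 1 or siMLK4 doxorubicin 3 was left out (log2 fold changes from 0.30 to 0.46 over the 12 fits that left out 1 library), and WARS1 did not pass when siMLK4 vehicle 2, siMLK4 vehicle 3, siMLK4 doxorubicin 1, siMLK4 doxorubicin 2 or siMLK4 doxorubicin 3 was left out (log2 fold changes from 0.27 to 0.43 over the 12 fits that left out 1 library). AARS1, at −0.58 ± 0.17, had an adjusted p of 0.0098 (limma) and of 0.051 without siMLK4 doxorubicin replicate 2. VARS1, among the 10 lower cytosolic genes at −0.27 ± 0.11 (adjusted p = 0.049), passed in 3 of the 12 fits that left out 1 library and lost the call when siNT vehicle 2, siMLK4 vehicle 1, siMLK4 vehicle 2 or any doxorubicin library was left out (−0.34 to −0.19).

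Whether the response to doxorubicin differed with MLK4 was tested by the interaction, the siMLK4 response minus the siNT response. At an adjusted p under 0.05 the test passed for 0 of the 35 members, against 0.623% of all genes negative and 0.576% positive, and at the stricter rule against 0.176% and 0.0999%. In limma 5 members had an unadjusted p under 0.05, all of them cytosolic, and limma-voom and the fit with a replicate block also passed 0. In the cytosolic class 17 of 19 estimates were positive, with a median of 0.31, against 6 of 16 positive and −0.03 for the mitochondrial class. The largest cytosolic estimate was that of AARS1, 0.66 ± 0.24 (SE, adjusted p = 0.21, limma). It was at 4093, 3918 and 4999 normalized reads in siMLK4 vehicle cells and 2852, 2472 and 3351 with doxorubicin. The siNT vehicle level stood above the siMLK4 vehicle level on average, but siMLK4 vehicle replicate 3 was above siNT vehicle replicate 2 (4685). The treated groups overlapped too. On this scale the largest mitochondrial estimate was that of EARS2, −0.34 ± 0.18 (adjusted p = 0.43, limma). In limma-voom the low genes VARS2 and SARS2 lay further from 0, at −0.97 and −0.74, against −0.42 for EARS2.

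Enzymes for the same amino acid were set side by side, with no test between genes. With doxorubicin in siNT cells the cytosolic fold change was below the mitochondrial one in 12 of 17 pairings, with a median difference of −0.22. In siMLK4 cells it was below in 8, with a median difference of 0.06. The largest difference in siNT cells was that of the prolyl enzymes, where EPRS1 fell and PARS2 rose, 2.26 apart on the log2 scale, with 1.88 in siMLK4 cells. The phenylalanyl enzymes came next, where FARSB fell and FARS2 rose, with a difference of −1.91 and −1.86. In the opposite sense the TARS1 estimate lay above that of TARS2 by 1.37 and 1.25. For alanine, isoleucine, asparagine and glutamate both enzymes fell in both transfections, and for arginine neither enzyme passed.

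**Figure D3:**
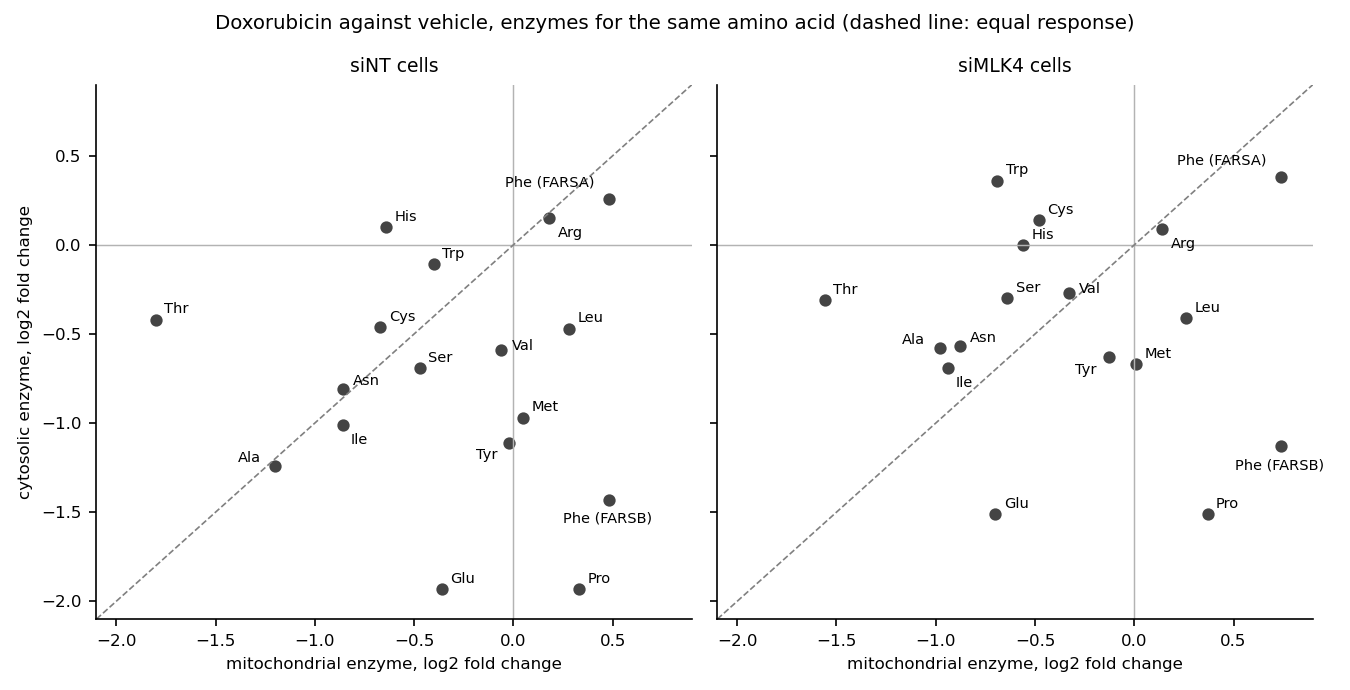
Log2 fold change with doxorubicin of the cytosolic enzyme (y axis) against that of the mitochondrial enzyme for the same amino acid (x axis) in siNT and siMLK4 cells, with a dashed line for equal responses. Pro (EPRS1 with PARS2) and Phe (FARSB with FARS2) lie far below the line, Thr (TARS1 with TARS2) far above it, and Ala close to it in siNT cells.

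HARS1 and HARS2 lie head to head on chromosome 5, and their RefSeq starts are 85 bases apart. The stretch from the HARS2 start to the HARS1 start holds 2 CCGGAAG words, in capitals on the HARS1 strand, where the first is read as its complement CTTCCGG.
HARS1 and HARS2, chr5:140691370-140691455, minus strand (GRCh38.p14): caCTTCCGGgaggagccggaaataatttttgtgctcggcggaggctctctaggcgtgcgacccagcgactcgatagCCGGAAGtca
HARS2 was at 587, 511 and 477 normalized reads in siNT vehicle cells and 304, 357 and 294 with doxorubicin. The groups were separate, and the log2 fold change was −0.64 ± 0.11 (SE, n = 3 and 3, adjusted p = 0.00024) (limma). HARS1 did not pass, at 0.10 ± 0.10 (adjusted p = 0.39), and the difference between the genes was not tested. In siMLK4 cells HARS2 was at −0.56 ± 0.11 (adjusted p = 0.00064, limma) and HARS1 at 0.00. Another 8 members also had a protein-coding neighbour on the opposite strand with a GENCODE start within 1000 bases. The starts of LYRM4, ORC3 and MRPS12 lay before the start of the member. Those of DDX19B, TERF2IP, WDR25, ING1 and UBFD1 lay within the member, so these genes overlap it. Of all 8 neighbours 4 passed with doxorubicin in siNT cells, against 27.7% of all genes lower and 29.6% higher. CARS2 fell where ING1, a growth inhibitor gene, rose by 0.87 ± 0.10 (adjusted p = 8e-06, limma). EARS2 fell beside UBFD1, a gene with a ubiquitin-like domain, which rose by 0.51 ± 0.11 (adjusted p = 0.0017). KARS1 and TERF2IP, a telomere protein gene, both rose, TERF2IP by 0.51 ± 0.12 (adjusted p = 0.0019). Beside RARS2, which did not pass, the origin recognition gene ORC3 was at −0.56 ± 0.12 (adjusted p = 0.0015). The neighbours DDX19B of AARS1, WDR25 of WARS1, LYRM4 of FARS2 and MRPS12 of SARS2 did not pass in siNT cells, at −0.08, 0.15, −0.16 and 0.45. In siMLK4 cells UBFD1 did not pass, at 0.23 (adjusted p = 0.1, limma), whereas ING1, TERF2IP and ORC3 passed again. WDR25 and MRPS12 passed there, at 0.31 and 0.71 (adjusted p = 0.047 and 0.012, limma).

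The effect of MLK4 depletion alone was read in vehicle-treated cells, with the siNT vehicle libraries that also serve as the control of the doxorubicin comparison above. siMLK4 lowered 13 synthetase mRNAs and raised 1 at an adjusted p under 0.05 (limma, Benjamini-Hochberg), against 13% of all genes lower and 12.7% higher. Of the cytosolic genes 9 of 19 fell and 1 rose, 18 of 19 estimates were negative, and the median was −0.46. Of the mitochondrial genes 4 of 16 fell and the median was −0.07, with 0.01 over all genes. Scaled by library totals 6 cytosolic and 0 mitochondrial genes were lower, and scaled by the 75th percentile 6 and 1. The stricter rule called 1 member, NARS1, against 3.14% of all genes lower and 2.51% higher. Single libraries moved these counts. The cytosolic count was 5 without siNT vehicle replicate 1 and 12 without siNT vehicle replicate 2, whose median cytosolic level was the lowest of its group. The mitochondrial count was 0 without siNT vehicle replicate 2, siNT vehicle replicate 3 or siMLK4 vehicle replicate 3, and 2 without siMLK4 vehicle replicate 1. A fit of the vehicle libraries alone called 5 cytosolic genes and 1 mitochondrial gene lower. It called 0 higher, so the cytosolic riser, QARS1, did not pass in it.

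NARS1 (ENSG00000134440, chr18:57600656-57622213, minus strand), whose promoter is shown above, was at 3868, 3064 and 3759.6 normalized reads in siNT and 2021, 2049 and 2067 in siMLK4 vehicle cells. The siMLK4 libraries lay close together below all siNT libraries, for a log2 fold change of −0.78 ± 0.11 (SE, n = 3 and 3, adjusted p = 0.00026). Without siNT vehicle replicate 1 or 3 it was −0.72 or −0.74, past the test but not the fold threshold. GARS1 was lower at −0.76 ± 0.22 (adjusted p = 0.022, limma), with overlapping groups, since siMLK4 replicate 3 (5818) was above siNT replicate 2 (5076). YARS1 was at 6474, 4261 and 5771 in siNT and 3031, 2898 and 3784 in siMLK4 vehicle cells. Its groups did not overlap, with a log2 fold change of −0.74 ± 0.15 (SE, n = 3 and 3, adjusted p = 0.0023). LARS1 fell by a like step, −0.73 ± 0.11 (adjusted p = 0.00035, limma), as did FARSB (−0.59), AARS1 (−0.52), TARS1 (−0.49), KARS1 (−0.46) and EPRS1 (−0.38) by less. AARS1 did not pass when siNT vehicle 1, siNT vehicle 3, siNT doxorubicin 2, siMLK4 vehicle 1, siMLK4 vehicle 2 or siMLK4 doxorubicin 1 was left out (log2 fold changes from −0.72 to −0.39 over the 12 fits that left out 1 library), and EPRS1 did not pass when siNT vehicle 1, siNT vehicle 3, siNT doxorubicin 2, siMLK4 vehicle 1, siMLK4 vehicle 2, siMLK4 vehicle 3 or siMLK4 doxorubicin 1 was left out (log2 fold changes from −0.46 to −0.29 over the 12 fits that left out 1 library). For GARS1 the call was lost when siNT vehicle 1, siNT vehicle 3, siMLK4 vehicle 1 or siMLK4 vehicle 2 was left out (log2 fold changes from −1.03 to −0.56 over the 12 fits that left out 1 library), and for TARS1 when siNT vehicle 1, siNT vehicle 3, siMLK4 vehicle 1 or siMLK4 vehicle 2 was left out (log2 fold changes from −0.64 to −0.38 over the 12 fits that left out 1 library). QARS1, the glutaminyl enzyme, went the other way, from 1756, 1428 and 1381 to 1848, 1892 and 2352. Every siMLK4 library was above every siNT library, and the log2 fold change was 0.40 ± 0.12 (SE, n = 3 and 3, adjusted p = 0.023). It did not pass when siNT vehicle 2, siNT vehicle 3 or siMLK4 vehicle 3 was left out (log2 fold changes from 0.30 to 0.51 over the 12 fits that left out 1 library).

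The mitochondrial genes that fell with siMLK4 were LARS2, EARS2, MARS2 and NARS2. LARS2 was at 588, 756 and 714 in siNT and 549, 531 and 329 normalized reads in siMLK4 vehicle cells. The groups did not overlap, although siMLK4 replicate 3 lay far below the other siMLK4 libraries, and the log2 fold change was −0.52 ± 0.16 (SE, n = 3 and 3, adjusted p = 0.024). EARS2 was at 437, 584 and 558 and 416, 414 and 320.0, and MARS2 at 399, 489 and 422 and 338, 374 and 249. In both genes siMLK4 replicate 3 was the lowest library, and the log2 fold changes were −0.41 ± 0.13 and −0.41 ± 0.13 (adjusted p = 0.032 and 0.037, limma). NARS2 was at −0.37 ± 0.11 (adjusted p = 0.023, limma). LARS2 and EARS2 lost the call when siNT vehicle 2, siNT vehicle 3 or siMLK4 vehicle 3 was left out, with log2 fold changes of −0.64 to −0.31 and −0.52 to −0.30 over the fits that left out 1 library. MARS2 lost it when siNT vehicle 2, siNT vehicle 3, siMLK4 vehicle 1, siMLK4 vehicle 3 or siMLK4 doxorubicin 1 was left out (−0.51 to −0.26), and NARS2 when siNT vehicle 2, siNT vehicle 3, siMLK4 vehicle 1 or siMLK4 vehicle 3 was left out (−0.41 to −0.35). TARS2 and AARS2, the mitochondrial genes with the largest response to doxorubicin in siNT cells, did not pass, at 0.10 ± 0.12 and −0.07 ± 0.14.

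**Figure D4:**
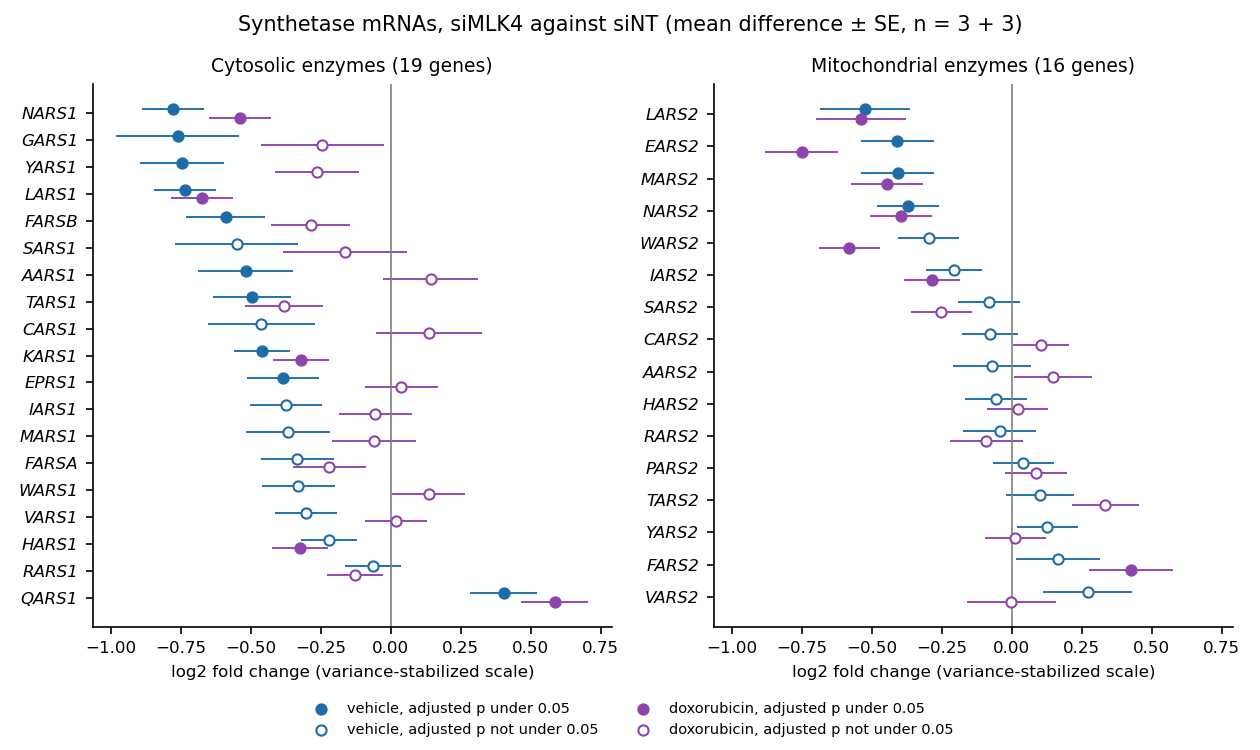
Log2 fold change of each synthetase mRNA in siMLK4 against siNT cells (x axis, variance-stabilized scale) with vehicle (blue) and with doxorubicin (purple), with the SE as the bar and filled points for an adjusted p under 0.05. With vehicle 18 of 19 cytosolic genes lie below 0, and QARS1, at 0.40 with vehicle and 0.59 with doxorubicin, lies above 0 in both.

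In doxorubicin-treated cells siMLK4 lowered 10 synthetase mRNAs and raised 2 at an adjusted p under 0.05 (limma, Benjamini-Hochberg), against 12.1% of all genes lower and 12.7% higher. The cytosolic median was −0.16 with 4 genes lower and 1 higher, and the mitochondrial median was −0.05 with 6 lower and 1 higher, beside 0.02 over all genes. Scaled by library totals, 2 cytosolic and 3 mitochondrial genes fell while 1 and 2 rose. The stricter rule called 1 member, EARS2, against 2.93% of all genes lower and 2.66% higher. Leaving out 1 library gave 2 to 5 lower cytosolic genes and 2 to 6 lower mitochondrial genes. The cytosolic count was 2 without siNT doxorubicin replicate 2 or 3 or without siMLK4 doxorubicin replicate 1 or 2, and the mitochondrial count was 2 without siNT doxorubicin replicate 3 or siMLK4 doxorubicin replicate 1 and 3 without siNT doxorubicin replicate 2 or siMLK4 doxorubicin replicate 3. LARS1 and NARS1 fell here too. LARS1 was at 2157, 2725 and 2624 in siNT and 1492, 1521 and 1607 normalized reads in siMLK4 cells, without overlap, for a log2 fold change of −0.67 ± 0.11 (SE, n = 3 and 3, adjusted p = 0.00068). NARS1 was at 1812, 1981 and 2218 and 1314, 1273 and 1496, also without overlap, with −0.54 ± 0.11 (SE, n = 3 and 3, adjusted p = 0.0037). QARS1 was again the cytosolic riser, at 1447, 1382 and 1345 in siNT and 2176, 2228 and 1949.7 in siMLK4 cells. The groups were separate, with a log2 fold change of 0.59 ± 0.12 (SE, n = 3 and 3, adjusted p = 0.0028). HARS1 and KARS1 fell by 0.33 and 0.32. HARS1 lost the call when siNT doxorubicin 2, siNT doxorubicin 3, siMLK4 doxorubicin 1 or siMLK4 doxorubicin 2 was left out, and KARS1 when any library compared was left out, with log2 fold changes of −0.38 to −0.29 and −0.36 to −0.26 over the 12 fits that left out 1 library.

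EARS2, which charges the mitochondrial glutamine tRNA with glutamate before its amidation, was at 381, 434 and 374 normalized reads in siNT and 231, 198 and 217 in siMLK4 cells with doxorubicin. The siMLK4 libraries were about at the same level and far below the siNT libraries, with a log2 fold change of −0.75 ± 0.13 (SE, n = 3 and 3, adjusted p = 0.00089). Without siNT doxorubicin replicate 2 or siMLK4 doxorubicin replicate 2 it was −0.69 or −0.70. WARS2 was at 385, 383 and 385 and 244, 208 and 274, with no overlap and a log2 fold change of −0.58 ± 0.11 (SE, n = 3 and 3, adjusted p = 0.0012). LARS2 was at 769.6, 911 and 840.5 and 550.3, 587 and 547, with no overlap and −0.54 ± 0.16 (SE, n = 3 and 3, adjusted p = 0.022). MARS2, NARS2 and IARS2 fell by 0.45, 0.39 and 0.28, and FARS2 was higher by 0.43. In this comparison libraries of equal replicate number varied together (correlations 0.19, 0.52 and 0.56), although the study's methods state no pairing. With replicate number as a block IARS2 and FARS2 had an adjusted p of 0.059 and 0.058 (limma), so neither passed in that fit. IARS2 passed in 3 and FARS2 in 6 of the 12 fits that left out 1 library. LARS2 lost the call when siNT doxorubicin 2, siNT doxorubicin 3, siMLK4 doxorubicin 1 or siMLK4 doxorubicin 3 was left out (−0.60 to −0.48), MARS2 when siNT doxorubicin 1, siNT doxorubicin 3, siMLK4 doxorubicin 1 or siMLK4 doxorubicin 3 was left out (−0.51 to −0.40), and NARS2 when siNT doxorubicin 2, siNT doxorubicin 3, siMLK4 doxorubicin 1 or siMLK4 doxorubicin 2 was left out (−0.48 to −0.32), with the range of log2 fold changes over those fits in parentheses.

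The cytosolic genes were then divided by the list of known ATF4 targets, chosen from background knowledge. Of 12 cytosolic synthetase genes on it, 10 fell with doxorubicin in siNT cells against 27.7% of all genes, the estimates of all 12 were negative and the median log2 fold change was −0.89. The other 7 cytosolic genes had a median of 0.10, with FARSB and VARS1 lower and KARS1 higher (27.7% and 29.6% of all genes). With siMLK4 in vehicle-treated cells the 12 had a median of −0.51, with 12 negative estimates and 7 that passed against 13% of all genes lower. The other 7 had −0.30, with 2 lower (FARSB, KARS1) and 1 higher (QARS1) against 12.7% of all genes higher. Both comparisons use the siNT vehicle libraries. In siMLK4 cells the response of the 12 to doxorubicin had a median of −0.58, with 8 lower and 1 higher against 27.7% and 30.2% of all genes. The other 7 had 0.06, with 2 lower and 2 higher. With siMLK4 in doxorubicin-treated cells the median of the 12 was −0.11, with 8 negative estimates and 2 lower, near the 12.1% of all genes. It ran from −0.22 to −0.07 when 1 library was left out, and was −0.03 under library totals. The other 7 were further down here, at −0.22, with 2 lower and 1 higher against 12.1% and 12.7% of all genes. The count of 7 for siMLK4 with vehicle was 4 under scaling by library totals or the 75th percentile. It was 3 without siNT vehicle replicate 1, siNT vehicle replicate 3 or siMLK4 vehicle replicate 2, and 4 without siMLK4 vehicle replicate 1. A fit of the vehicle libraries alone passed 3 of the 12. The motif printed above was in 6 of the 10 promoters at hand for the 12 and in 0 of 6 for the other cytosolic genes. EPRS1 and GARS1, whose promoters hold no match, had larger falls with doxorubicin in siNT cells than each of the 6 cytosolic genes that have 1.

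ATF4 and 24 of its targets outside the family were read beside them. With doxorubicin in siNT cells 18 of the 25 fell and 2 rose, against 27.7% and 29.6% of all genes, with a median log2 fold change of −1.07. Without siNT vehicle replicate 1, 4 rose. The stress inhibitor of mTOR signalling DDIT4 fell, at −3.35 ± 0.42, as did the glutathione-degrading enzyme CHAC1, at −2.78 ± 0.49, whereas the transcription factor ATF3, also a target of other stress pathways, rose by 2.16 ± 0.32 (adjusted p = 1.5e-05, 0.00024 and 5.8e-05, limma). The ATF4 mRNA itself was at 16688, 8786 and 11666 normalized reads with vehicle and 4177, 3926 and 4739 with doxorubicin. The groups were separate, with a log2 fold change of −1.48 ± 0.25 (SE, n = 3 and 3, adjusted p = 0.00022). In siMLK4 cells 10 of the 25 fell and 4 rose with doxorubicin, against 27.7% and 30.2% of all genes, with a median of −0.44. Without siMLK4 vehicle replicate 3 it was 5 lower and 7 higher with a median of 0.01, under library totals 7 lower and 6 higher, and the lower count was 4 without siMLK4 doxorubicin replicate 2. The interaction estimates of all 25 were positive with a median of 0.87, and 0 passed at an adjusted p under 0.05 in limma, where 11 had an unadjusted p under 0.05, with 0 in limma-voom and 2 with a replicate block. Without siNT vehicle replicate 2 the interaction passed for 6 of them, and without siMLK4 vehicle replicate 3 for 4. With siMLK4 in vehicle-treated cells 12 of the 25 fell, against 13% of all genes, and the median was −0.59, with −0.99 without siNT vehicle replicate 2 and −0.95 without siMLK4 vehicle replicate 3. The count was 5 without siMLK4 vehicle replicate 2, 6 without siMLK4 vehicle replicate 1 or without siNT vehicle replicate 1 or 3, 17 without siNT vehicle replicate 2, and 4 in a fit of the vehicle libraries alone. In doxorubicin-treated cells the same genes had a median of 0.10 with siMLK4, with 1 gene higher against 12.7% of all genes, and with replicate number as a block 2 were higher and 1 lower. A fit of the doxorubicin libraries alone passed 6 higher and 2 lower, and leaving out 1 library gave 0 to 2 in each direction, with 0 higher when siNT doxorubicin 1, siNT doxorubicin 2 or any siMLK4 doxorubicin library was left out.

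These lists varied together among replicates. Taking for each library the median deviation of a list from each gene's mean over all 12 libraries, the 12 synthetases on the ATF4 list stood at 0.85, 0.38 and 0.74 in the siNT vehicle libraries and at −0.03, −0.06 and 0.28 in the siMLK4 vehicle libraries. ATF4 and the targets outside the family stood at 0.97, 0.16 and 0.82 and at −0.17, −0.35 and 0.49. In both lists siNT vehicle replicate 2 was thus the lowest of its group and siMLK4 vehicle replicate 3 the highest. The mitochondrial class did not show this, at 0.22, 0.32 and 0.25 and at 0.16, 0.19 and 0.14. The median of the other 7 cytosolic genes was within −0.09 to 0.18 in all 12 libraries. What set these replicates apart was not tested. Without siNT vehicle replicate 2, 13 cytosolic genes fell with doxorubicin in siNT cells in place of 12, and the cytosolic median was −0.70.

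**Figure D5:**
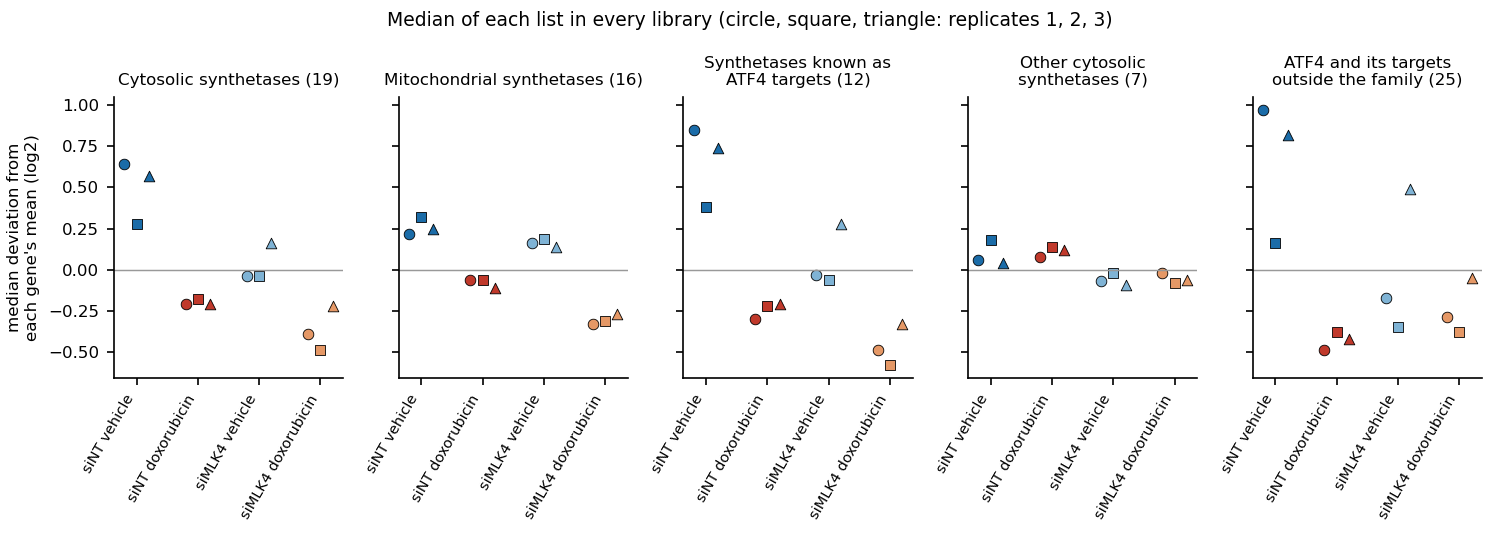
Median deviation of 5 gene lists from each gene's mean over all libraries (y axis, log2) in each of the 12 libraries, with replicates 1, 2 and 3 as circles, squares and triangles. Replicate 2 of the siNT vehicle group (0.38) and replicate 3 of the siMLK4 vehicle group (0.28) approach each other in the list of synthetases known as ATF4 targets. The median of the other 7 cytosolic genes stays between −0.09 and 0.18.

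The multisynthetase complex did not move as a unit. Of its 7 synthetases EPRS1, IARS1, MARS1 and LARS1 fell with doxorubicin in siNT cells, KARS1 rose, and QARS1 and RARS1 did not pass, with a median of −0.47 (27.7% of all genes fell and 29.6% rose). The scaffold genes AIMP1, AIMP2 and EEF1E1 did not pass in siNT cells, at −0.09, −0.27 and −0.29. With siMLK4 in vehicle-treated cells AIMP2 fell by 0.67 ± 0.16 (adjusted p = 0.0069, limma), and with doxorubicin AIMP1 fell by 0.47 ± 0.11 (adjusted p = 0.0056). Of the 12 cytosolic genes outside the complex 8 fell with doxorubicin in siNT cells, against the same share, with a median of −0.64.

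Genes that act next to the synthetases were read from lists chosen by function. The cytosolic elongation factors, which bring charged tRNAs to the ribosome and move it along, fell with doxorubicin in siNT cells in 4 of 4 genes measured, against 27.7% of all genes, with a median of −1.11. The largest change was that of EEF1D, an exchange factor subunit, at −1.39 ± 0.21, and EEF2, the translocation factor, went from 36417, 37584 and 40370.4 to 15189.8, 15883 and 18200.2 normalized reads without overlap. EEF2 was also lower in siMLK4 than in siNT vehicle cells, by 0.99 ± 0.11 (adjusted p = 2.9e-05, limma). The mitochondrial translation factors had 3 of 8 lower and 2 higher, near the 27.7% and 29.6% of all genes, with a median of 0.09. MRRF, the ribosome recycling factor, was at −0.76 and MTRF1L, a release factor, at 0.68. Of the genes for amidation and formylation of mitochondrial tRNAs, GATC rose by 0.38 ± 0.12, and QRSL1, GATB and MTFMT did not pass.

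RNA polymerase III, which transcribes tRNA genes, and its factors had 9 of 21 genes lower and 3 higher with doxorubicin in siNT cells, against 27.7% and 29.6% of all genes, and a median of −0.21. The second largest subunit gene POLR3B fell by 1.50 ± 0.13, and the initiation factor genes GTF3C3 and GTF3A fell too, at −1.23 and −1.22. Among 13 genes of tRNA editing, export and end processing 6 fell and 1 rose against the same shares, with a median of −0.21. The tRNA splicing endonuclease gene TSEN15 fell by 1.73 ± 0.17, whereas TSEN54 of the same enzyme rose by 0.75 ± 0.16 (adjusted p = 0.0014, limma). XPOT, the tRNA exporter, fell by 1.35 ± 0.16 with doxorubicin and by 0.88 ± 0.16 with siMLK4 in vehicle-treated cells (adjusted p = 7.5e-06 and 0.0011, limma). In siMLK4 cells the RNA polymerase III list had 7 genes lower and 3 higher with doxorubicin, against 27.7% and 30.2% of all genes. Its median there was 0.07.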

How the data were processed

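The 35 synthetase genes, the related lists and the tests were chosen with earlier results of these data known. According to the supplementary methods, reads were trimmed with Trimmomatic, mapped with Hisat2 to GRCh38, cleared of optical duplicates and counted per gene by strand. The submitters' processing notes name HTSeq 0.6.0, DESeq2 1.26.0 and the build hg19. Gene positions here are from GENCODE release 44 (GRCh38). The deposited values are on a log2 scale, variance-stabilized by the authors from reads divided by size factors, and the closed form of that transformation returned whole reads (tolerance 0.05) for 100% of the values. Every gene averages 10.67 normalized reads or more in its highest group, and the filter is not given in the sources used here. All 12 libraries and 4 group means entered 1 limma 3.58.1 fit (R 4.3.3, lmFit, eBayes with a variance trend) on the deposited values, with Benjamini-Hochberg adjustment over 17013 genes. The code was tested on simulated data. RPKM was computed from recovered reads and union exon length. Lists were described by counts and medians without a test. Values in every library are given for the members with the largest change per class and comparison (up to 3, adjusted p under 0.05), the pairing with the largest difference and MAP3K21. FARS2, HARS2, EEF2 and ATF4, and the genes named as neighbours, were added after their values were seen. The study's methods state no pairing of libraries. Replicate numbers were taken as paired where every correlation was over 0.1, read from the values alone. This held for doxorubicin in siNT cells (0.46, 0.11, 0.20) and for siMLK4 with doxorubicin (0.19, 0.52, 0.56). Alternatives are given below.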

Additional observations from a re-analysis of the deposited data

How the results depend on the processing

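No called result reversed under the alternatives, and the mitochondrial median for siMLK4 with vehicle, near 0, turned positive under both other scalings. With an adjusted p under 0.05 and no fold threshold, members called numbered 24 for doxorubicin in siNT cells, 24 in siMLK4 cells, 14 for siMLK4 with vehicle and 12 with doxorubicin. For doxorubicin in siMLK4 cells 11 were called under 75th percentile scaling, log2 of normalized reads + 1 or + 4 and limma-voom. For siMLK4 with vehicle 0 were called under library totals and the 75th percentile, and 2 under + 1, + 4 and voom (YARS1 added) and under the replicate block (GARS1 added). Library totals moved the median of all genes by 0.24, 0.21, 0.16 and 0.12 in that order and the 75th percentile by at most 0.13. Library totals gave cytosolic medians of −0.36, −0.12, −0.32 and −0.08, and mitochondrial medians of −0.18 for doxorubicin in siNT cells, 0.06 for siMLK4 with vehicle and −0.10 for the interaction. Relative to the shift the cytosolic medians were −0.60, −0.33, −0.48 and −0.19. The 75th percentile gave a cytosolic −0.48 in siNT cells and mitochondrial −0.30, −0.68, 0.01, −0.10 and −0.13 (interaction). Doxorubicin gave mitochondrial medians of −0.42 (+ 1), −0.42 (+ 4) and −0.43 (voom) in siNT and −0.71, −0.71 and −0.72 in siMLK4 cells, and siMLK4 with doxorubicin −0.11 (+ 1) and −0.12 (voom). The cause was not tested. With library totals IARS2, NARS1 and NARS2 in siNT cells were at −0.63, −0.59 and −0.67, short of the fold threshold.

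Leaving out 1 library gave 11 to 13, 6 to 10, 0 to 4, 0 to 2 and 0 to 0 members called in the 5 comparisons, the interaction last. Cytosolic medians ran from −0.70 to −0.47, −0.40 to −0.28, −0.52 to −0.39, −0.23 to −0.09 and 0.20 to 0.37, and mitochondrial medians from −0.45 to −0.34, −0.58 to −0.49, −0.13 to −0.05, −0.15 to −0.05 and −0.07 to 0.03. By the same reading the replicate numbers did not pair the libraries for siMLK4 with vehicle (correlations −0.72, 0.32 and −0.52). Nor did they for doxorubicin in siMLK4 cells (−0.08, 0.18 and 0.34). The replicate block changed no other count of members called at the stricter rule by over 1.5 times.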
